A study of Mus musculus with 8 samples.

Results

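The genes examined here are the clustered histone genes of the mouse, taken as every row of the gene table whose symbol starts with Hist1h, Hist2h, Hist3h or Hist4h. There are 64 such rows among 17644 genes: 51 Hist1 genes, 9 Hist2 genes, 3 Hist3 genes and 1 Hist4 gene. By the protein they encode they fall into 5 H1, 17 H2A, 18 H2B, 11 H3 and 13 H4 genes. One H2B row, Hist3h2bb-ps, is named as a pseudogene. Expression was measured by CAGE, which sequences the 5′ ends of capped RNAs, in total RNA of brain tissue next to a cavity in the motor cortex. The cavity was made by aspirating cortex from male C57BL/6NCrSlc mice aged 11 weeks, and tissue within a 1.0 mm margin was taken. The no-delay group (4 libraries) was collected right after the aspiration, and the 1-week group (4 libraries) was collected 1 week later. Both groups therefore carry the fresh or older lesion, and no unlesioned tissue enters the comparison. The question for these genes is how their levels at 1 week compare with those in freshly lesioned tissue.

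Histone proteins package DNA into nucleosomes, in which an H3–H4 core is flanked by H2A–H2B dimers, and the linker histone H1 binds where DNA enters and leaves. Clustered histone genes occur in many near-identical copies and are best known for supplying histones while DNA is copied in S phase. Most of their mRNAs lack introns and a poly(A) tail, and end in a short stem-loop that is bound by the protein SLBP. In adult brain most neurons no longer divide, whereas glia and immune cells can divide after injury.

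The stem-loop is shown first because it defines the family at the RNA level and because 3 of its variants occur here in H4 genes alone. The motif (a 16-base stretch with a 6-base stem that starts with GG and ends with CT, a loop of TTT and any base, and the other strand of the stem from AG to CC) was searched in the sense strand of annotated GENCODE M21 transcripts, and it was found in those of 42 of the 64 genes, in 6 variants. Among 21951 protein-coding genes, 78 carried it (0.355%). Each variant is printed 5′ to 3′ with the bases of the 4-base loop in capitals.
variant of 25 genes, among them Hist1h1c, Hist1h3b and Hist1h2ao: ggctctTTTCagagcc
variant of 7 genes, all H4, among them Hist1h4d and Hist1h4c: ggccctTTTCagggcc
variant of 5 genes, among them Hist1h3c and Hist1h2bk: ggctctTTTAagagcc
variant of 2 genes, Hist1h4i and Hist2h4: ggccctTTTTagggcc
variant of 2 genes, Hist1h4b and Hist1h4j: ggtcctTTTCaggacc
variant of 1 gene, Hist2h2ac: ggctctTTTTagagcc
A transcript without a match says only that these letters are not in its annotated sequence. Of the 2 H4 genes called lower below, Hist1h4f carries the variant of 7 genes and Hist1h4b the variant it shares with Hist1h4j.

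Upstream sequence is shown for the members that the results turn on. RefSeq promoters (GRCm38.p6, a later build than the mm9 used for the tags) were matched for 58 of the 64 genes. Over 300 bases, from 250 before to 50 after the annotated start, the letters TATAA in gene orientation were found in 39 of 58 (67.2%) against 20.03% of 27025 genes. The letters CCAAT or ATTGG were found in 49 of 58 (84.5%) against 41.1%. All 46 H1, H2A, H2B and H3 promoters held them, but only 3 of 12 H4 promoters did. The octamer ATTTGCAT or ATGCAAAT was found in 12 of 58 (20.7%) against 1.97%, in 6 of 17 H2A and 6 of 15 H2B promoters and in none of the H1, H3 or H4 promoters. These matches describe letters and not bound sites. The pieces below are the 130 bases before the start, on the gene's strand, with matches to these motifs in capitals.
Hist1h3b, chr13:23752215-23752344, plus strand: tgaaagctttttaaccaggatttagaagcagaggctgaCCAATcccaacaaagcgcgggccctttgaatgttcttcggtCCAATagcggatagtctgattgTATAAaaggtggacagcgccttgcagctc
Hist1h3c, chr13:23745522-23745651, minus strand: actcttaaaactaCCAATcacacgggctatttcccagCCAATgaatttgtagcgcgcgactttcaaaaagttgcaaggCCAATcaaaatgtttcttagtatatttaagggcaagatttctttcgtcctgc
Hist1h2af, chr13:23533745-23533874, plus strand: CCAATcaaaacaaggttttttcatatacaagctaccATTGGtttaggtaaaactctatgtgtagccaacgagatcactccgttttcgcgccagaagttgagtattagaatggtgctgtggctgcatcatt
Hist1h1c, chr13:23738677-23738806, plus strand: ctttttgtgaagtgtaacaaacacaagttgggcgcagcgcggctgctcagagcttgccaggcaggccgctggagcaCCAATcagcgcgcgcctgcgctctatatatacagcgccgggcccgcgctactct
Hist1h2ac, which starts head to head with Hist1h2bc, chr13:23683960-23684089, minus strand: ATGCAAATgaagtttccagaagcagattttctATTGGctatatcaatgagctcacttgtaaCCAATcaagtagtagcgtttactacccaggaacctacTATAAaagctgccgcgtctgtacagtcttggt
Hist1h4b, chr13:23756807-23756936, plus strand: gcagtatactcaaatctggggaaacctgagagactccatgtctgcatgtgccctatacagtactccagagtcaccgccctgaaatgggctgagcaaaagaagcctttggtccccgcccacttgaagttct
Hist3h2a, chr11:58954555-58954684, plus strand: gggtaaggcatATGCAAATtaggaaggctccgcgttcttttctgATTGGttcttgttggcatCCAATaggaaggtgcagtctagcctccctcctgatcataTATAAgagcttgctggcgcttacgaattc
The Hist1h4b piece holds none of the 3 motifs, but TATAA does occur in its full window of 300 bases. The Hist1h2ac and Hist3h2a pieces each hold all of them.

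Values are CPM, tags scaled to a common library total, and a CAGE tag marks 1 RNA end, so CPM is not scaled by gene length. The libraries held 8278855 to 13998942 tags, and 3 tags, the upper limit that 0 observed tags allow, correspond to 0.214 to 0.362 CPM by library. The 4 libraries of a group are called A, B, C and D here, in the alphabetical order of the short tags in their column names, which are the same in both groups. Values of a group are listed in that order, which pairs nothing. A second tag of the columns differs between the groups, so whatever it stands for and the time after the lesion cannot be told apart. Neuron, astrocyte and microglia markers were all present: neuron markers (4 of 5 listed analysed here) summed to 4952 to 5675 CPM at no delay and 4397 to 4765 CPM at 1 week, and those of astrocytes to 441 to 502 CPM and then 1666 to 2362 CPM. Tissue was taken whole, so fewer cells of a type and less RNA per cell cannot be told apart.

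Summed over all 64 genes, clustered histone RNA differed by less than the spread between libraries. The sums were 5249, 5979, 6105 and 5902 CPM in the no-delay libraries and 6096, 5914, 5637 and 5452 CPM in the 1-week libraries. The groups overlapped, with means of 5809 ± 382 (SD, n = 4) and 5775 ± 286 CPM and a ratio of 0.994. In any library these genes took 0.525% to 0.610% of all tags. The sum was uneven, since the 5 genes with the highest mean held 53.3% of it and the top 10 held 71.1%.

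The sums of the single classes pointed in different directions. H4 genes made up 60.7% of the histone sum at no delay and 56.4% at 1 week, with sums of 3525 ± 225 and 3255 ± 117 CPM (ratio 0.924). The H4 sums overlapped, since the no-delay library A had 3195 CPM and the 1-week libraries had 3137 to 3356 CPM. H1 genes had higher sums at 1 week, from 366 ± 30.0 to 459 ± 37.0 CPM (ratio 1.25). The H1 sums did not overlap between groups, but the margin was narrow, since the highest no-delay library had 410 CPM and the lowest 1-week library 411 CPM. Dividing these 2 sums by the libraries' TMM scaling factors (0.976 and 1.04) would reverse their order. Within H1, Hist1h1c alone went from 113 ± 11.7 to 175 ± 15.5 CPM, and the other 4 genes were not called below. The H2A sums were 569 ± 36.6 and 634 ± 42.6 CPM, and the H2B sums were 808 ± 72.6 and 896 ± 84.3 CPM, both overlapping. These last sums include Hist1h2ap and Hist1h2br, which were high in 1 library alone, and without the genes under the expression filter given below the ratios were 1.09 for H2A and 1.08 for H2B. The H3 sums were close, at 541 ± 55.6 and 530 ± 58.2 CPM. No test was made on these sums. Grouped by cluster, the ratio of means was 1.01 for Hist1, 0.945 for Hist2, 0.914 for Hist3 and 0.927 for the lone Hist4 gene.

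**Figure D1:**
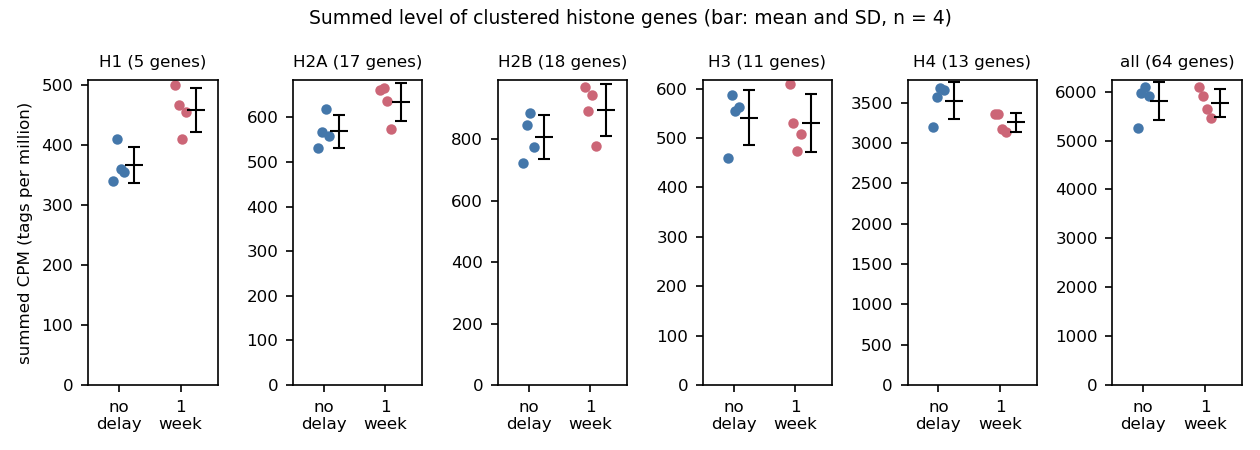
Summed CPM of the clustered histone genes per library (points), by protein class and for all 64 genes, with mean and SD of the 4 libraries of each group as bars. Each vertical axis starts at 0 and has its own scale; the H1 points of the 1-week group lie between 411 and 501 CPM, and the H4 mean is lower at 1 week (3255 against 3525 CPM).

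Each gene was then tested with limma on log2(CPM + 1), over the 14718 genes that reached 1 CPM in at least 4 libraries, with Benjamini-Hochberg adjustment and a threshold of 0.05. Fold changes below are 1 week over no delay on that log2(CPM + 1) scale, which understates changes of low genes. Of the 64 histone genes 59 passed the filter. At 1 week 14 of them were higher (23.7%), where 23.4% of all genes tested were higher, and 6 were lower (10.2%), where 13.4% of all genes were lower. The other 39 did not pass the test, so 33.9% were called in either direction against 36.8% of all genes. Both shares lie near the background, and the median log2 fold change of the 59 genes was 0.03 against 0.06 over all genes tested. The split depended on the scaling: 70.0% of called histone genes were higher as deposited, 52.6% after TMM scaling (10 higher and 9 lower) and 39.1% after quantile normalization (9 and 14), which moved the median of all genes from 0.06 to -0.04. On recovered tag counts edgeR called 9 higher and 9 lower (19.9% and 17.4% of all genes), and DESeq2 10 and 11 (19.0% and 18.8%). All 6 lower genes were also lower with both, while 9 of the 14 higher genes were also higher with edgeR and 10 with DESeq2. Groups did not overlap for 9 genes with all 1-week libraries above (15.3%, against 22.7% of all genes) and for 6 with all of them below (10.2%, against 12.0%).

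A core of 11 calls held under every alternative in which the gene was tested. These were Hist1h2af, Hist1h3b, Hist1h3c, Hist1h2ah, Hist1h2bn, Hist1h2bk, Hist1h1c and Hist1h2bc, which were higher, and Hist1h4b, Hist1h2ao and Hist3h2ba, which were lower. The other 9 calls were lost under at least 1 alternative, and none reversed. Tags of near-identical genes are a limit: the first 75 annotated bases, the length of a read, lie within 2 mismatches of another clustered histone gene for 14 of the 64 genes and match one fully for 8, though annotated starts may differ from the starts of tags. The labels do not say that each of the 4 samples of a group came from its own animal, so the p-values rest on the spread between samples that may share a source.

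**Figure D2:**
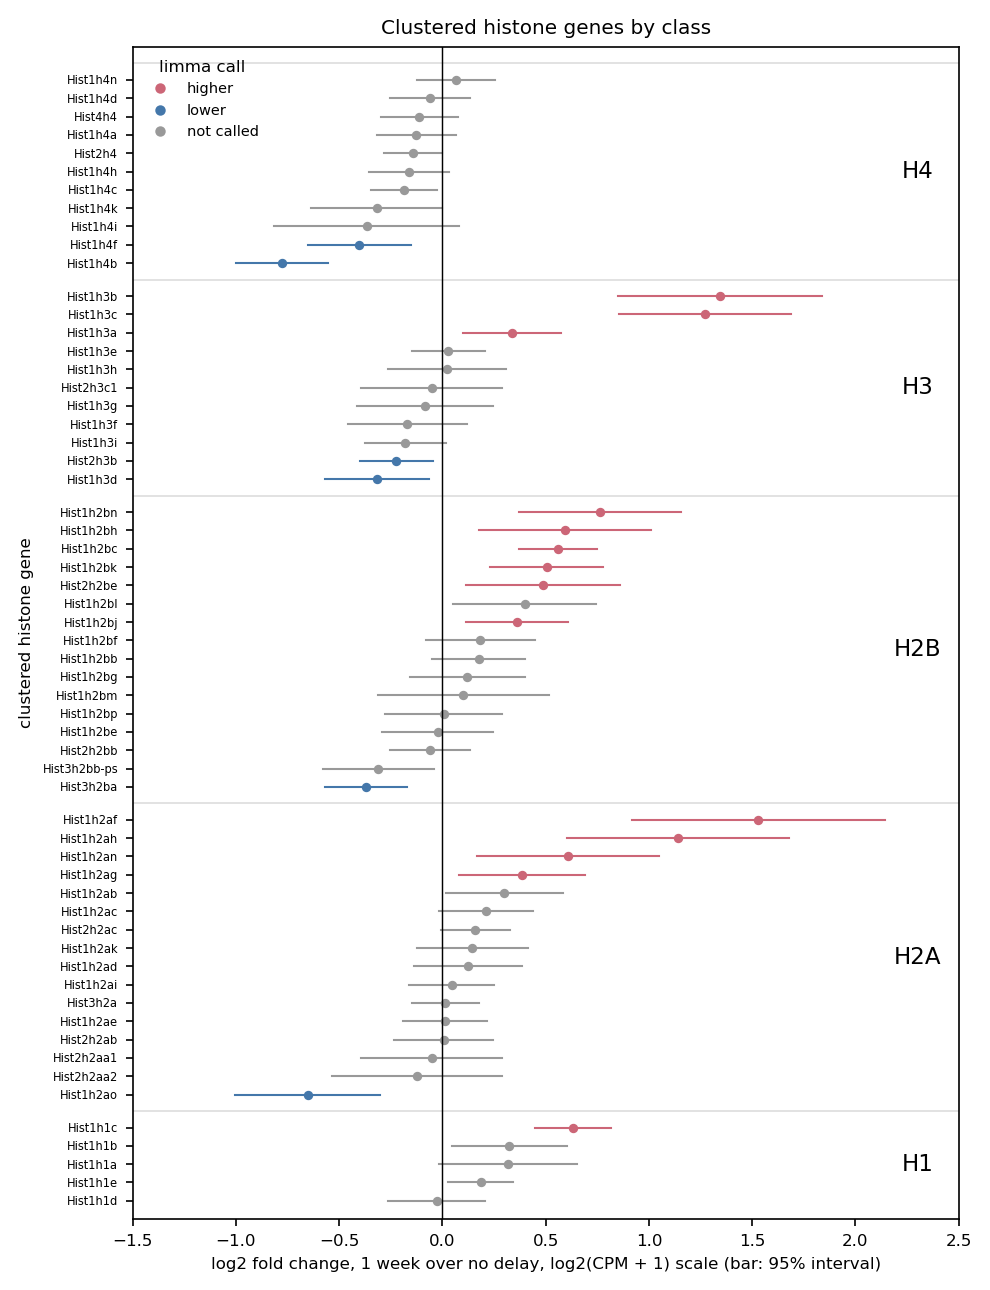
Estimated log2 fold change (horizontal axis, from log2 of CPM + 1) and its 95% interval for the 59 clustered histone genes tested, grouped by class on the vertical axis and coloured by limma call. Calls of higher levels occur in H1, H2A, H2B and H3 genes, while the H4 genes hold 0 higher and 2 lower calls and 10 of their 11 estimates are below 0. The 2 lower calls are 18.2% of the H4 genes tested, against 13.4% of all genes tested.

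Among the linker histones, Hist1h1c rose and the other 4 genes did not pass the test. Hist1h1c had 108, 130, 103 and 110 CPM at no delay and 192, 180, 155 and 171 CPM at 1 week. All 1-week libraries lay above all no-delay libraries, and the change was 0.63 on the log2 scale (limma, SE 0.085, adjusted p = 0.000103). The most abundant linker gene, Hist1h1e, had 198 ± 12.5 CPM and then 226 ± 17.4 CPM (n = 4 each, a log2 fold change of 0.19, limma adjusted p = 0.0622). It passed the test without the no-delay library B (0.047) or the 1-week library C (0.0291), and with quantile normalization (0.025). Hist1h1a was lower in level, at 6.83 ± 1.39 and 8.74 ± 1.58 CPM (adjusted p = 0.127, and 0.0441 without the no-delay library B or 0.0461 without the 1-week library D). Hist1h1d differed by -0.03 (95% interval -0.27 to 0.21). Hist1h1b did not overlap between groups, from 5.59 ± 0.957 to 7.18 ± 0.122 CPM, but its adjusted p was 0.0668.

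H2A genes, 16 of 17 tested, gave 4 higher and 1 lower call and a median log2 fold change of 0.13. These calls were 25.0% and 6.25%, against 23.4% and 13.4% of all genes tested. The largest change among the 59 genes tested was that of Hist1h2af, with 7.07, 3.38, 6.93 and 2.19 CPM at no delay and 21.9, 13.9, 11.7 and 13.4 CPM at 1 week. Its groups did not overlap, and its log2 fold change was 1.53 (SE 0.28, adjusted p = 0.00111). Hist1h2ah went from 5.74, 2.01, 3.76 and 2.19 CPM to 11.1, 9.31, 6.43 and 6.84 CPM, again with no overlap (1.14, SE 0.25, adjusted p = 0.00329). Hist1h2an (4.96 to 7.97 CPM in the group means) and Hist1h2ag (14.3 to 19.0 CPM) were called higher with overlapping groups (adjusted p = 0.0335 and 0.048). The first 75 bases of the annotated Hist1h2an transcript also occur in Hist1h2ag, so these 2 calls may rest in part on the same tags. The call of Hist1h2an was lost without either library A or either library B (adjusted p up to 0.109), with edgeR (0.0569) and with quantile normalization (0.333). The call of Hist1h2ag was lost without these 4 or the no-delay library D (up to 0.15), with a pseudocount of 5, with no filter, with TMM, median-of-ratios and quantile scaling (up to 0.248), and with edgeR and DESeq2. In the other direction, Hist1h2ao had 5.74, 6.58, 8.12 and 9.90 CPM at no delay and 3.74, 4.29, 4.21 and 5.37 CPM at 1 week. Every 1-week library was below every no-delay library (-0.65, SE 0.16, adjusted p = 0.00739). The first 75 bases of its annotated transcript are also found in Hist1h2ap, so tags of these genes may not be separable. Hist1h2af lies within 1 mismatch of Hist1h2ad by the same measure and is uncertain in the same way, while Hist1h2ad itself differed by only 0.12 (95% interval -0.14 to 0.38).

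The H2A genes with the highest levels did not pass the test. Hist3h2a, the top one, had 233, 260, 271 and 225 CPM at no delay and 254, 267, 245 and 232 CPM at 1 week, and its interval ran from -0.15 to 0.18. Its row is identical to that of its neighbour Trim17 in all 8 columns, so its level may belong to either gene. Hist2h2ac (44.1 and 49.4 CPM), Hist1h2ai (44.9 and 46.5 CPM) and Hist1h2ab (38.4 and 47.4 CPM) had adjusted p values of 0.127, 0.742 and 0.0903. Without the 1-week library C Hist1h2ab passed, at 0.0489. Of the remaining H2A genes tested, Hist2h2aa1 was the lowest in level of all 59, at 2.67 ± 0.579 and 2.53 ± 0.379 CPM, and was called lower under quantile normalization alone (adjusted p = 0.0379). That row is identical to Hist2h3c1, an H3 gene, in all columns, so 1 measurement stands in both classes and counts in both.

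H2B genes, 16 of 18 tested, gave 6 higher and 1 lower call and a median log2 fold change of 0.18. These calls were 37.5% and 6.25%, against 23.4% and 13.4% of all genes tested. Hist1h2bc was the second most abundant H2B gene, and its 4 no-delay libraries had 129, 157, 168 and 158 CPM. At 1 week it had 250, 228, 210 and 214 CPM, with no overlap (0.56, SE 0.087, adjusted p = 0.000325). Hist1h2bn rose from 9.32, 12.0, 11.5 and 6.77 CPM to 22.0, 18.8, 13.2 and 15.6 CPM (0.76, SE 0.18, adjusted p = 0.00556). Hist1h2bk rose from 15.2, 15.4, 16.9 and 11.9 CPM to 23.6, 24.5, 19.7 and 18.2 CPM (0.51, SE 0.13, adjusted p = 0.00758). Both again had every 1-week library above every no-delay library. Hist1h2bh (2.65 to 4.51 CPM), Hist2h2be (3.33 to 5.09 CPM), studied in mouse for its role in olfactory neurons, and Hist1h2bj (23.1 to 29.9 CPM) were called higher with overlapping groups. Hist1h2bh lost its call without the no-delay library A, B or D or the 1-week library A or B (adjusted p from 0.0279 up to 0.0938). Quantile normalization also ended that call (0.418). Hist1h2bj lost its call without either library A or B (from 0.0248 up to 0.0801), with all 3 other scalings (TMM, median-of-ratios and quantile, up to 0.0917), with edgeR (0.0638) and with DESeq2 (0.0652). Hist2h2be lost its call without the no-delay library A, C or D or the 1-week library A, B or C (from 0.0416 up to 0.117). It also lost it with no filter, with the same 3 scalings (up to 0.661), with edgeR (0.0678) and with DESeq2 (0.0817).

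A single H2B gene was called lower. Hist3h2ba had 143, 162, 158 and 136 CPM at no delay and 125, 111, 131 and 98.9 CPM at 1 week, with no overlap (-0.37, SE 0.091, adjusted p = 0.00734). Its neighbour in the same small cluster, Hist3h2bb-ps, pointed the same way but was not called by limma (22.6 ± 4.05 to 17.9 ± 1.62 CPM, adjusted p = 0.0701, and 0.0231 with edgeR). The most abundant H2B gene, Hist2h2bb, had 276 ± 27.2 and 265 ± 26.4 CPM, and its interval ran from -0.25 to 0.13. Hist1h2bg, next in level after Hist3h2ba, had 55.1 ± 6.61 and 60.48 ± 11.6 CPM (adjusted p = 0.488). Hist1h2be had 9.24 ± 1.38 and 9.02 ± 0.673 CPM, and its row is identical to that of the pseudogene Gm11398.

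H3 genes, all 11 tested, gave 3 higher and 2 lower calls (27.3% and 18.2%, against 23.4% and 13.4% of all genes tested). Hist1h3b went from 8.61, 4.66, 9.31 and 4.06 CPM to 22.6, 19.0, 14.1 and 15.6 CPM, a change of 1.35 (SE 0.23, adjusted p = 0.00059). Hist1h3c went from 4.82, 3.11, 5.74 and 3.44 CPM to 16.3, 11.0, 10.4 and 9.2 CPM, a change of 1.27 (SE 0.19, adjusted p = 0.000264). In both, all 1-week libraries were above all no-delay libraries, and the ratio of the group means was 2.68 for Hist1h3b and 2.74 for Hist1h3c. The row of Hist1h3c is identical to that of the pseudogene Gm11336, so the locus behind these tags is uncertain. Hist1h3a was higher with overlapping groups (36.1 to 45.6 CPM, 0.34, adjusted p = 0.029), and lost its call without either library A or the 1-week library B (up to 0.0831). The call was also lost with TMM, median-of-ratios and quantile scaling, edgeR (0.083) and DESeq2 (0.0861). Hist1h3d (64.5 to 51.4 CPM, adjusted p = 0.0488) and Hist2h3b (65.0 to 55.4 CPM, adjusted p = 0.0477) were lower, just inside the threshold and with overlapping groups. Both lost their calls without the library B or C of either group or the 1-week library D, and Hist1h3d also without the no-delay library D (adjusted p up to 0.147 and 0.138). Both also lost them with no filter (0.0622 and 0.0525), and Hist1h3d with a filter of 5 CPM (0.0519).

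The 3 most abundant H3 genes were not called. Hist1h3e had 114 ± 7.22 and 117 ± 13.0 CPM, with an interval from -0.15 to 0.20. Hist1h3i had 117 ± 14.0 and 103 ± 7.28 CPM (adjusted p = 0.138, 0.0429 with DESeq2, and 0.0143 without the no-delay library A), and Hist1h3h had 81.2 ± 15.0 and 81.7 ± 10.4 CPM (adjusted p = 0.911). The first 75 annotated bases of Hist1h3h and of Hist1h3i occur without a mismatch in Hist1h3b, so their tags are uncertain too. Thus the H3 genes that rose by more than 1 on the log2 scale started from 4.28 and 6.66 CPM, well under the 81 to 117 CPM of these 3.

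**Figure D3:**
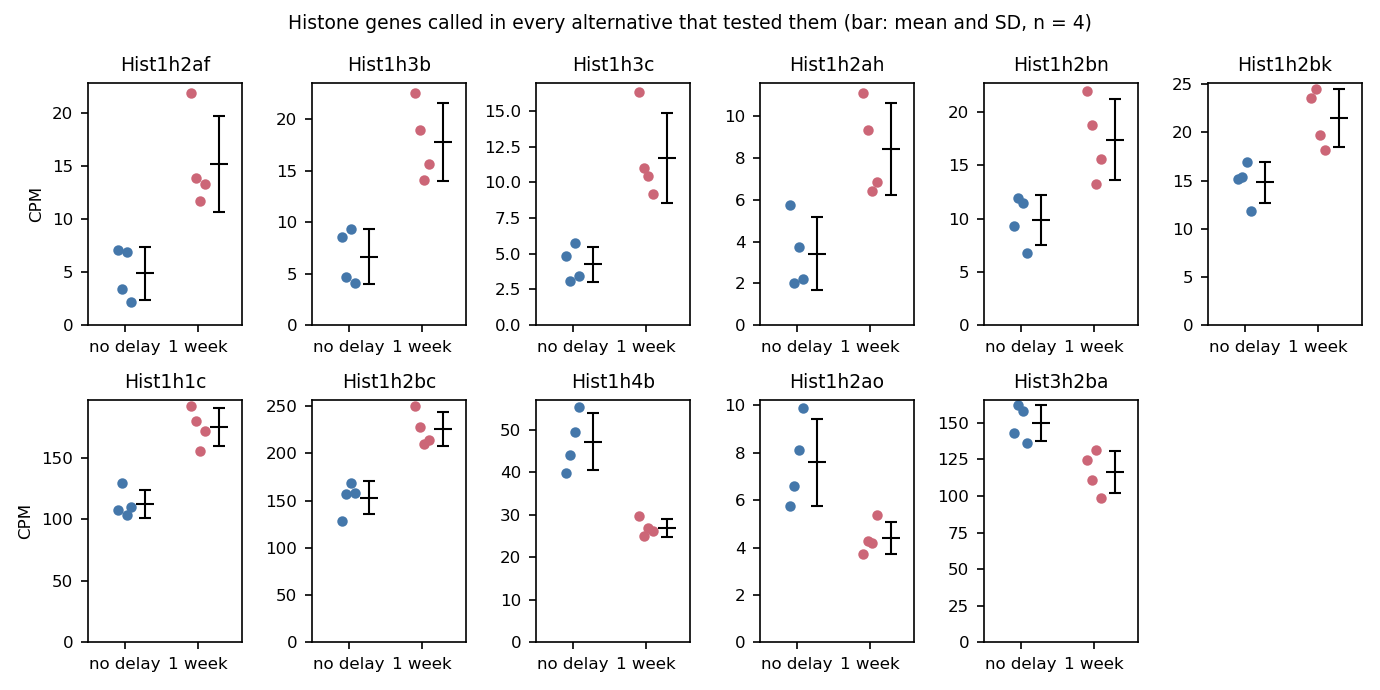
CPM per library (points, 4 per group) for the 11 clustered histone genes whose call held under every alternative in which they were tested, with mean and SD as bars; each axis starts at 0 and has its own scale. In each panel the points of the 2 groups do not overlap: the first 8 genes are higher at 1 week, and Hist1h4b, Hist1h2ao and Hist3h2ba are lower.

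H4 genes were the most abundant class, and none of the 11 tested was higher at 1 week. Hist1h4b fell from 39.9, 44.0, 49.6 and 55.4 CPM to 29.8, 25.0, 26.9 and 26.1 CPM. All 1-week libraries were below all no-delay libraries, and the log2 fold change was -0.78 (SE 0.10, adjusted p = 8.7e-05). Hist1h4f had 158, 216, 213 and 202 CPM at no delay and 184, 141, 134 and 138 CPM at 1 week. Its groups overlapped through the no-delay and 1-week libraries A, and it was called lower (-0.40, SE 0.11, adjusted p = 0.0158). It was no longer called without the no-delay library B (0.0501) or the 1-week library C (0.0515). The class median was -0.16, with 10 of 11 estimates below 0, and 18.2% of the 11 genes were called lower. Over all genes tested the median was 0.06 and 13.4% were lower. At 100 CPM or more the median of all genes was -0.05 and 25.6% were lower. Under TMM and median-of-ratios scaling Hist1h4c was also called lower, and edgeR called 4 and DESeq2 5 H4 genes lower. Of all genes tested, edgeR called 17.4% and DESeq2 18.8% lower.

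The 4 highest H4 genes held most of the class. Hist1h4d had 926, 933, 998 and 859 CPM at no delay and 1022, 921, 847 and 785 CPM at 1 week, which overlapped (interval -0.25 to 0.13). Hist1h4c had 711, 764, 762 and 832 CPM and then 611, 702, 683 and 701 CPM, without overlap, but its adjusted p was 0.0683 with limma, 0.0284 with edgeR and 0.0436 with limma without the no-delay library A. Hist1h4n had 636 ± 77.1 and 662 ± 18.6 CPM and was the only H4 estimate above 0 (0.06). Hist1h4h had 565 ± 71.5 and 503 ± 15.4 CPM (adjusted p = 0.182, 0.0417 with DESeq2, and 0.00983 without the no-delay library A). Hist2h4 (221 ± 5.88 and 200.7 ± 14.2 CPM) and Hist1h4k (4.11 ± 0.63 and 3.10 ± 0.509 CPM) also did not overlap between groups and were not called (adjusted p = 0.101 and 0.107). Below the filter, Hist1h4j came closest to passing, with 0.592 ± 0.207 and 0.882 ± 0.248 CPM.

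Calls occurred at all levels. Of 17 histone genes with a mean under 10 CPM, 5 were higher and 1 lower, while 33.3% of all genes at that level were higher and 4.15% lower. Between 10 and 100 CPM, 7 of 28 were higher and 3 lower, against 21.2% and 14.5% of all genes. At 100 CPM or more, 2 of 14 were higher and 2 lower, against 13.9% and 25.6%. The 4 genes with a log2 fold change of 1 or more, Hist1h2af, Hist1h3b, Hist1h3c and Hist1h2ah, had no-delay means of 3.42 to 6.66 CPM.

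**Figure D4:**
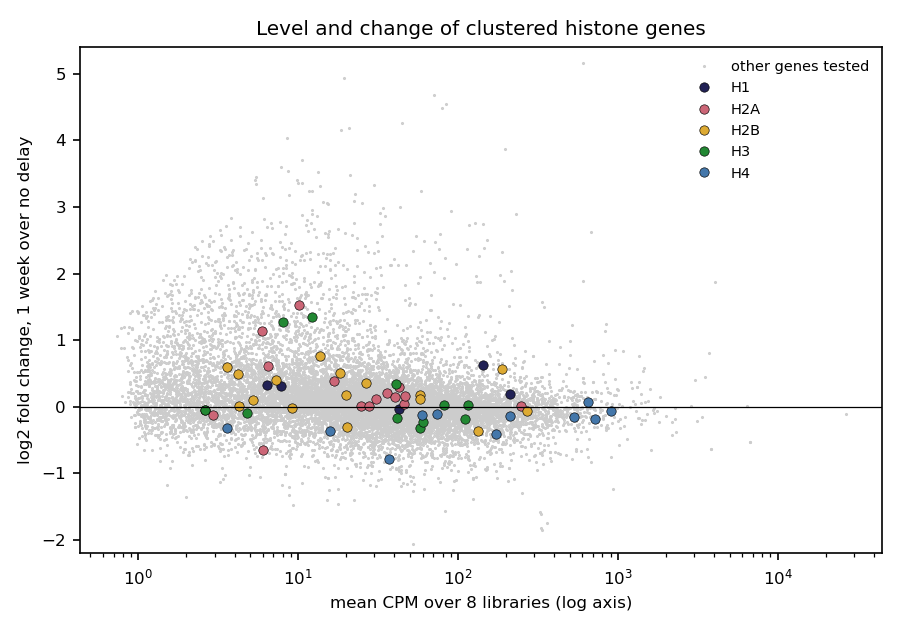
Mean CPM over all 8 libraries (horizontal, log axis) against log2 fold change (vertical) for the 59 histone genes tested, coloured by class, over the other genes tested in grey. The histone genes lie within the cloud of all genes, and the 4 with a log2 fold change above 1 have means near 6 to 12 CPM.

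Many H2A and H2B genes start head to head, so that 2 genes share the sequence between their starts. By GENCODE order 13 pairs of clustered histone genes start within 1000 bases on opposite strands, 12 of H2A with H2B and 1 of H2B with H3. In 11 pairs both genes were tested. Both partners were called higher in 2 pairs: Hist1h2ag with Hist1h2bj (0.39 and 0.36) and Hist1h2ah with Hist1h2bk (1.14 and 0.51). The calls of Hist1h2ag and Hist1h2bj were both lost with TMM scaling, edgeR and DESeq2. Those of Hist1h2ah and Hist1h2bk held under every alternative. In 5 pairs 1 partner alone was called, and these were not tested for a difference between partners. Of these single calls, those of Hist1h2an, Hist1h2bh and Hist2h2be were lost under some alternatives. Hist1h2bc was called (0.56) and Hist1h2ac was not (0.21), though they share the upstream sequence printed above. Hist1h2bn was called (0.76) and Hist1h2ak not (0.15), and Hist1h2an was called (0.61) while Hist1h2bp had 0.01. The mixed pair had Hist1h2bh at 0.59 and Hist1h3f at -0.17. For Hist2h2ac and Hist2h2be the values were 0.16 and 0.49. Whether tags were assigned by strand is not given in the sources used here.

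**Figure D5:**
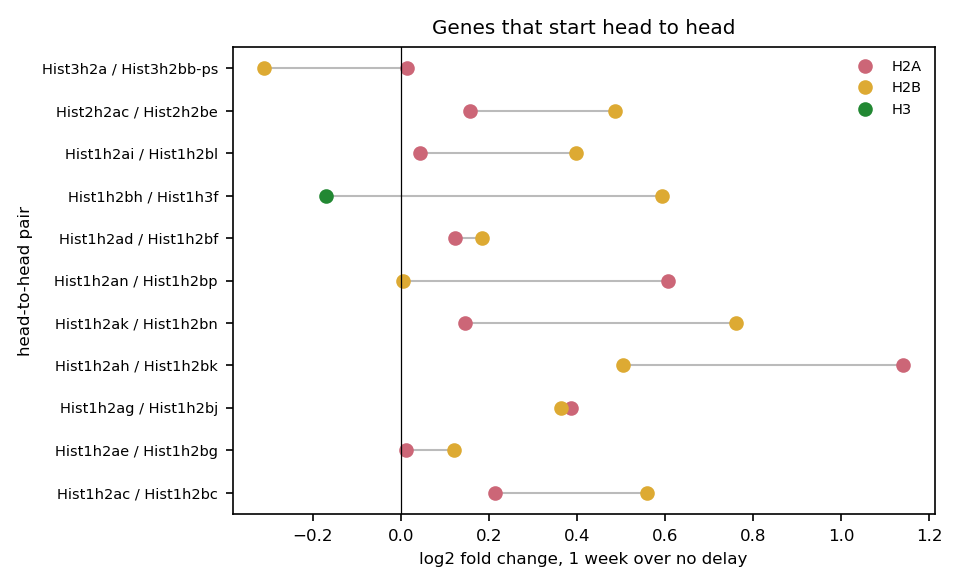
Log2 fold change, 1 week over no delay, of the partners of the 11 head-to-head pairs with both genes tested; each line joins 1 pair and colour gives the class. Partners lie close for Hist1h2ag and Hist1h2bj (0.39 and 0.36) and far apart for Hist1h2bh and Hist1h3f (0.59 and -0.17).

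One head-to-head pair was high in a single library. Hist1h2ap had 63.3 CPM (886 tags) in the 1-week library C and at most 0.24 CPM in the other 7. Hist1h2br, its partner, had 93.7 CPM (1311 tags) in the same library and at most 0.24 CPM elsewhere. Neither passed the filter, and no fold change is given for them. Over all genes of the series, 8 had at least 10 CPM in 1 library and were at least 10 times lower in all others, and 5 of the 8 did so in this same library. Hist1h2ao, whose first 75 bases also occur in Hist1h2ap, had 4.21 CPM there, inside the range of the other 1-week libraries. The first 75 bases of an annotated Hist1h2br transcript likewise occur in Hist1h2bq, and the reverse. Hist1h2bq had 2 tags in that library, and tags of Hist1h2br and Hist1h2bq may not be separable. Hist1h2bq and Hist1h4m were also untested and near the floor, with 3 and 11 tags over the 4 no-delay libraries and 5 and 8 tags over the 4 1-week libraries.

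Histone variant genes named outside the clustered set were counted for comparison. Of 11 such genes 5 were higher and 2 lower, with a median log2 fold change of 0.00. These counts, and those of the lists that follow, stand beside 23.4% higher and 13.4% lower over all genes tested. The centromeric H3 variant Cenpa had 4.96 ± 1.19 and 9.81 ± 1.12 CPM (0.88, adjusted p = 0.000757). The genes H3f3a (202 ± 17.7 to 301 ± 26.2 CPM, 0.58, adjusted p = 0.000162) and H3f3b (213 ± 31.8 to 275 ± 30.6 CPM, 0.38, adjusted p = 0.0178) encode the replacement variant of H3. H3f3b lost its call without the 1-week library A (adjusted p = 0.0559) or B (0.0537). With limma H2afv and H2afj were also higher and H1f0 and H1fx lower, and the H2afj call (adjusted p = 0.0217) was lost with edgeR (0.0958) and DESeq2 (0.0891).

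Of 12 genes tested among 13 listed for transcription and 3′ processing of histone mRNA, 1 was higher, 2 were lower and the median was 0.10. Pou2f1, which encodes the octamer-binding factor OCT-1, had 13.3 ± 1.51 and 18.1 ± 3.05 CPM (0.41, adjusted p = 0.0225). Lsm11, a part of the U7 particle that directs cleavage of histone mRNA ends, had 16.4 ± 2.24 and 10.7 ± 1.23 CPM (-0.57, adjusted p = 0.00306). Cstf2, a cleavage factor, had 85.7 ± 2.96 and 64.8 ± 3.41 CPM (-0.40, adjusted p = 0.000371). Slbp, the stem-loop binding protein, was not called (53.8 and 61.8 CPM, adjusted p = 0.073), and neither was Npat (22.9 and 24.8 CPM, adjusted p = 0.338), the coactivator of clustered histone genes. The Pou2f1 call was lost under median-of-ratios scaling, quantile normalization, and without either library A (adjusted p up to 0.216). Of 16 histone chaperones tested among 17 listed, 3 were higher and none lower at a median of 0.12. The H3–H4 chaperones Asf1b (0.495 ± 0.102 to 1.87 ± 0.473 CPM, adjusted p = 0.000799) and Asf1a (22.9 ± 2.19 to 28.8 ± 2.16 CPM, adjusted p = 0.0165) and the acetyltransferase Hat1 (12.8 ± 0.98 to 16.4 ± 1.41 CPM, adjusted p = 0.0207) made up these 3. Asf1b had at most 0.61 CPM in any no-delay library and passed the filter only through the 1-week group, so a lower call was hardly possible. Asf1a lost its call without the 1-week library C (adjusted p = 0.06), and Hat1 under 5 alternatives (up to 0.313).

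Genes of S phase and proliferation were mostly higher or not called. Of 23 tested among 24 listed, 14 were higher and none lower with limma, where 23.4% of all genes tested were higher. Top2a, Cdk1, Mki67, Ccna2 and Tk1 are among these 14. They were under 1 CPM in every no-delay library and passed the filter only through the 1-week group. A lower call was therefore hardly possible for them, and their values enter the median that follows. The median of the 23 was 0.51, against 0.03 for the clustered histone genes and 0.06 over all genes tested. Most of the list had means under 10 CPM, where 33.3% of all genes were higher with a median of 0.22. The contrast with the histone genes is thus not matched for level. Top2a, which untangles DNA in dividing cells, went from 0.45 ± 0.0716 to 5.56 ± 0.342 CPM (2.18, adjusted p = 1.7e-07). The mitotic kinase gene Cdk1 went from 0.313 ± 0.235 to 4.43 ± 1.11 CPM (2.04, adjusted p = 4.7e-06), and Mki67, a marker of cycling cells, from 0.147 ± 0.131 to 3.09 ± 0.455 CPM (1.83, adjusted p = 2.8e-06). E2f1, a transcription factor of S phase genes, had 12.5 and 9.53 CPM and was called lower by edgeR (adjusted p = 0.0339) and DESeq2 (0.0213) but not by limma (0.0698). At no delay the 3-tag floor was 0.274 to 0.313 CPM by library. The mean of Cdk1 was near it, and that of Mki67 was below it. Markers of non-neuronal cells were higher at 1 week as well. Microglia markers (5 of 5 called higher) summed to 154 to 177 CPM at no delay and 481 to 652 CPM at 1 week. Monocyte and macrophage markers (2 of 2 tested, of 4 listed, called higher) summed to 4.61 to 7.92 and then 105 to 298 CPM. Of the 2 tested, Ms4a7 was under 1 CPM in every no-delay library and passed the filter only through the 1-week group. Fibroblast markers were all called higher (11.0 to 20.6 and then 26.9 to 109 CPM), 2 of 4 neuron markers were lower, and T cell markers summed to at most 0.71 CPM. Higher calls were also made for 4 of 5 oligodendrocyte, 2 of 4 oligodendrocyte precursor and 3 of 4 endothelial markers, and the single neutrophil marker tested was not called. Red blood cell markers ranged from 659 to 1562 CPM at no delay and from 348 to 5361 CPM at 1 week, with none of 5 called. The part of cell composition or cell division in the histone values was not tested.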

How the data were processed

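The table deposited by the authors gives CPM, with every library scaled to the same total, for 17644 genes in 8 columns. The submitters' processing notes name BWA 0.5.9 and mm9; per the labels' protocols, CAGE libraries were read as 75 nt single ends. The sources used here do not give the primer for reverse transcription, the assignment of tags to genes or whether strand was used. Column names show the group and not the replicate number. All values up to 50 CPM (100%) were whole multiples of 1 tag within 0.1 tag, so tags were recovered. The 3-tag floor covers counting error only, because no molecular identifiers were counted.

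Genes were tested on log2(CPM + 1) in limma 3.58.1 (trended variance, R 4.3.3): genes with 1 CPM or more in at least 4 libraries, 2-sided, Benjamini-Hochberg adjustment, threshold 0.05. Alternatives were pseudocounts of 0.25 and 5, no filter and a filter of 5 CPM, TMM, median-of-ratios and quantile scaling, edgeR 4.0.16 and DESeq2 1.42.0 on recovered tags, identical rows counted once, and leaving out each library. Scripts were tested on simulated data. Members and gene lists were chosen with earlier results of these data known. Genes named are the 4 most abundant of each class, every called member, members in identical rows, those next to the filter, and up to 3 called genes per comparison list; Hist1h1b, Hist1h2ad, Hist1h4k, Hist2h4, Hist3h2bb-ps, Slbp, Npat, H2afv, H2afj, H1f0, H1fx, E2f1, partners of called genes and untested genes were added after their values were seen. Stem-loops come from GENCODE M21 transcripts and promoters from RefSeq (GRCm38.p6); their positions do not apply to mm9.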

Additional observations from a re-analysis of the deposited data

Results flagged for a closer look

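In 6 of 164 groups of 4 libraries, each group being 1 gene or 1 histone sum (class or total) at 1 time, the highest or lowest library stood apart from the other 3. The sums hold the same values as their genes, so the groups are not independent. Chance alone gives about 1 in 20, or 8.2 of 164. In the 1-week group, Hist1h2ap had 63.29 CPM and Hist1h2br 93.65 CPM in library C, against 0 to 0.24 CPM in the other 3. Hist1h4f had 183.6 CPM in the 1-week library A, against 134 to 141 CPM in the other 3. In the no-delay group, Hist1h2be had 7.17 CPM in library A, against 9.90 to 9.97 CPM. Hist1h2bh had 3.86 CPM in the no-delay library C, against 2.19 to 2.29 CPM, and Hist1h4k had 5.05 CPM there, against 3.75 to 3.89 CPM.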

How the results depend on the processing

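No called gene changed direction under the alternatives run, but the balance of calls did. Against 14 higher and 6 lower clustered histone genes, quantile normalization gave 9 and 14, edgeR 9 and 9, and DESeq2 10 and 11. TMM scaling moved the median log2 fold change of the histone genes from 0.03 to -0.03. It moved that of all genes tested as well, from 0.06 to 0.003, so this shift is not particular to the histone genes. Among the alternatives, shares of all genes called are given above for edgeR and DESeq2 only. Leaving out 1 library gave 8 to 16 higher and 3 to 10 lower genes: 8 and 10 without the no-delay library A, 12 and 3 without the no-delay library B, 8 and 7 without the 1-week library A, 8 and 4 without the 1-week library B, and 16 and 3 without the 1-week library C. Calls lost under some of their 17 or 18 alternatives were those of Hist1h2ag (12), Hist2h2be (12), Hist1h2bj (9), Hist1h3a (8), Hist1h3d (8), Hist1h2an (6), Hist1h2bh (6), Hist2h3b (6) and Hist1h4f (2, without the no-delay library B or the 1-week library C). The cause was not tested. The log2 ratio of the Hist3 sums was -0.13, and -0.36 without Hist3h2a. A filter of 5 CPM, which tests fewer genes, gave 15 higher genes of the comparison lists against 23, and leaving out 1 library gave 12 to 23. The filter still asked for 4 libraries when 1 was left out. Genes at 1 CPM or more in the 1-week group alone, among them Top2a, Cdk1, Mki67 and Asf1b, were then untested without a 1-week library. Part of the fall therefore comes from genes no longer tested. The sums over tested members only were added after seeing the data. No paired analysis was possible because the columns carry no replicate number. A gene with 0 tags may have had up to 0.214 to 0.362 CPM, by library.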
